A study of Mus musculus with 9 samples.

Results

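Across sorted lung macrophages, 5 single genes were followed: Map6, Nnmt, Smim5, Cav1 and Ppap2b, the last now named Plpp3. They were chosen by name from 24346 gene symbols because their mean FPKM (fragments for each kilobase of a transcript, relative to all mapped fragments) was highest in the alveolar macrophages of tumor-bearing lungs, a property that 4366 symbols had. All 5 reached an FPKM of 1 in 3 or more of the 9 samples, as did 10686 genes in all, and of these 2558 (23.9%) had their highest mean in the same group. Inhba, which encodes the subunit of the growth factor activin A, was used as the reference pattern.

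RNA sequencing had been performed on macrophages of C57BL/6 mice, labelled as aged 10 weeks after birth, in 3 groups of 3 samples. Ctrl-AM were alveolar macrophages (AMs) of control mice given vehicle. Tumor-AM were AMs, and Tumor-macrophage were tumor-associated macrophages (TAMs), of mice whose left lung had been injected with Lewis lung carcinoma (LLC) cells carrying tdTomato, a single mouse lung carcinoma line. The mice were female, and all cells were sorted as CD45+ and autofluorescent. The study described AMs as Siglec-F+ CD11b- and TAMs as Siglec-F- CD11b+. Control and tumor-bearing mice were bred separately, so breeding and the tumor cannot be told apart. Which mice the same replicate numbers stand for was not given in the labels.

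AMs are resident phagocytes of the air spaces that take up surfactant and particles, whereas many macrophages inside tumors descend from blood monocytes. The 5 genes belong to unrelated systems. Map6 encodes a microtubule-associated protein that keeps microtubules stable, Nnmt the enzyme that moves a methyl group from S-adenosylmethionine to nicotinamide, and Smim5 a small membrane protein. Cav1 encodes caveolin-1, the coat protein of the membrane pits called caveolae, and Ppap2b an ecto-enzyme that removes the phosphate from lysophosphatidic acid and related lipids. Cav1 and Ppap2b are known for high levels in endothelial and other structural lung cells, and Nnmt for high levels in fibroblasts.

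The labelled cell types were checked against marker genes. The summed FPKM of 12 AM markers was 27060 to 32625 in Ctrl-AM, 23376 to 40381 among Tumor-AM samples and 294 to 614 in Tumor-macrophage. The sum of 12 TAM or monocyte markers was 159 to 268, 511 to 896 and 35412 to 48448 in the same order, so Tumor-AM libraries held more TAM marker RNA than Ctrl-AM libraries and far less than Tumor-macrophage libraries. Of the 12 AM markers, 2 (Cidec and Pparg) were lower in Tumor-AM samples than in Ctrl-AM (limma adjusted p under 0.05), against 3.18% of all genes. None was higher, and 5 were lower at an unadjusted p under 0.05. Their median difference in log2(FPKM + 1) was -0.34, against 0.01 for all genes. Without Tumor-AM replicate 3 only Pparg was called. Depth was estimated from the steps between low values, with an assumed fragment length of 200 bases, at 11000000 to 13900000 reads per sample.

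Positions are given on GRCm38, the assembly also called mm10. Map6 (chr7:99267447-99337137), Smim5 (chr11:115899966-115906269), Cav1 (chr6:17306335-17341452) and Ppap2b (chr4:105157347-105232764) lie on plus strands. Nnmt (chr9:48591877-48605153) lies on the minus strand. The longest coding transcripts run from the 78 codons of Smim5, spread over exons 2 and 3 of 3, to the 906 codons of Map6, which start in exon 1 and end in exon 4. No stretch of 75 bases, the read length, in these transcripts occurred in a transcript of another gene. Recql5, on the opposite strand, overlaps the span of Smim5 without sharing an exon, and had mean FPKM of 2.28, 2.61 and 2.37 in Ctrl-AM, Tumor-AM and Tumor-macrophage.

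RefSeq promoters (GRCm38.p6, 250 bases before to 50 after a start) were held for Cav1, Ppap2b and Inhba. They are shown because Cav1 had the profile most like that of Ppap2b over the 9 samples and was among the 5 genes most like Inhba. Ranked by likeness to Cav1, however, Inhba was only at place 3033 among 10685 genes. Capitals mark matches on either strand to the TATA box letters TATAAA, and the windows were also searched for AP-1 (TGANTCA), the CRE core (TGACGT), the Smad box (CAGAC) and the PU.1 core (GAGGAA).
Cav1, chr6:17306085-17306384, plus strand: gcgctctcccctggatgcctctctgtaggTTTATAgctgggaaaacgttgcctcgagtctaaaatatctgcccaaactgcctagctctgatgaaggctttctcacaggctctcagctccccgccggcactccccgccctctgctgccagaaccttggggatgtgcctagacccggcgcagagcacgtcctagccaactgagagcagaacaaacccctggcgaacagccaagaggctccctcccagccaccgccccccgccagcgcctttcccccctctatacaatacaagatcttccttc
Ppap2b, chr4:105157097-105157396, plus strand: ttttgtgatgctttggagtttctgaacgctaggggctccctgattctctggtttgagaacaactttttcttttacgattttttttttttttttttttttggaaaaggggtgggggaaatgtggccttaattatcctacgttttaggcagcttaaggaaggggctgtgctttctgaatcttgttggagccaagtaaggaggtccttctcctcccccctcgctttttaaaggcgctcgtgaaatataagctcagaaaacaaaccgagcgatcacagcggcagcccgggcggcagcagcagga
Inhba, chr13:16011601-16011900, plus strand: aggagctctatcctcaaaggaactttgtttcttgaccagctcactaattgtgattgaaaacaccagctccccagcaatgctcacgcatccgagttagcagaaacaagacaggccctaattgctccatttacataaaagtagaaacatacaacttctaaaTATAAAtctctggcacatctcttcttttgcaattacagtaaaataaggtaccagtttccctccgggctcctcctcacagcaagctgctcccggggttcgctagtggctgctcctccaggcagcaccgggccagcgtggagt
TATA box letters were found in the Cav1 window, on the reverse strand at position -221 from the start, and in the Inhba window at position -91. The Ppap2b window held none of the 5 motifs. A further Cav1 start, whose window covers chr6:17307390-17307689, held 2 Smad boxes and 1 PU.1 core. Of 32851 promoters of this length, 13.6% held the TATA box letters, 49.6% a Smad box, 28.3% a PU.1 core, 7.81% AP-1 and 7.51% the CRE core.

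In each of the 5 genes, and in Inhba, every Tumor-AM sample lay above every Ctrl-AM and Tumor-macrophage sample. This held for 551 of 10686 genes (5.16%), but the choice of the genes by their Tumor-AM mean used the same values, so the levels in Tumor-AM are a description without a test. The plot of FPKM by sample shows the separation, which was widest for Map6, whose lowest Tumor-AM value was 3.33 times the highest value elsewhere. It was narrowest for Ppap2b, at 1.16 times. The genes differed in where the other groups stood, and the mean of Tumor-macrophage was 4.16% of the Tumor-AM mean for Map6 and 39.8% for Cav1.

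**Figure D1:**
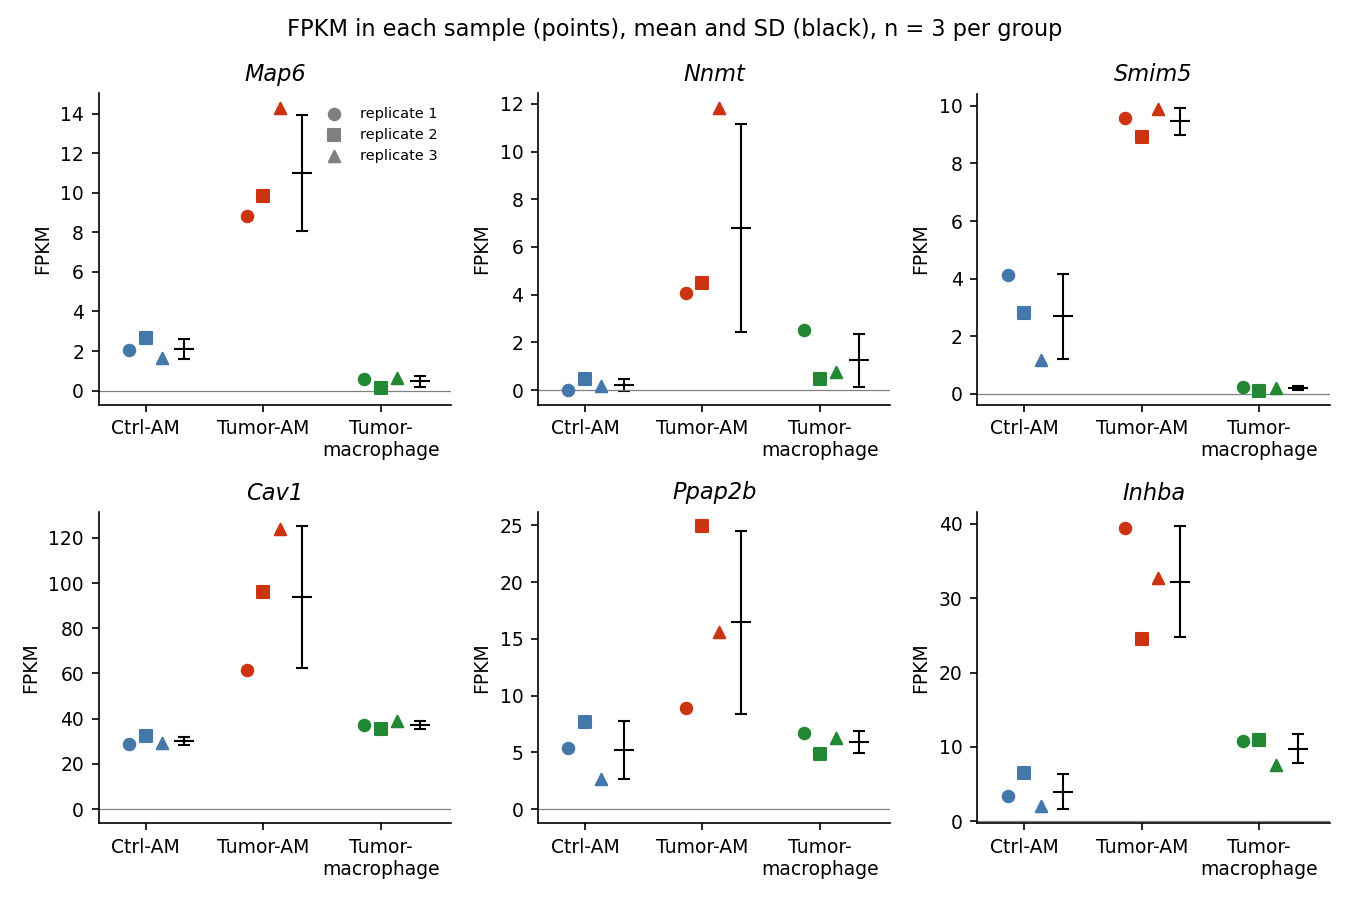
FPKM (y axis, linear, 1 scale per gene) of the 5 genes and Inhba in the 3 samples of Ctrl-AM (blue), Tumor-AM (red) and Tumor-macrophage (green), with marker shapes for replicate numbers and black bars for the mean and SD. The Tumor-AM points lie above all others in every panel, and the Smim5 points of Tumor-AM sit closest together, from 8.93 to 9.87.

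Map6 had FPKM of 2.03, 2.65 and 1.65 in the 3 Ctrl-AM samples, 8.82, 9.86 and 14.3 among Tumor-AM samples, and 0.591, 0.142 and 0.639 in Tumor-macrophage. The 3 groups did not overlap, with TAMs lowest. Means were 2.11 ± 0.503, 11.0 ± 2.92 and 0.457 ± 0.274 FPKM (SD, n = 3 each), so the Tumor-AM mean was 5.22 times that of Ctrl-AM and 24.0 times that of Tumor-macrophage. In the 1 comparison that the choice of the genes did not use, Map6 was lower in Tumor-macrophage samples than in Ctrl-AM by 1.10 ± 0.21 (SE) on the log2(FPKM + 1) scale (difference -1.10, 95% interval -1.56 to -0.64, limma adjusted p = 0.00105). A pseudocount of 1 was added before the logarithm, which understates changes of genes as low as this one.

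Smim5 followed the same order of groups. Its FPKM were 4.11, 2.83 and 1.17 in Ctrl-AM, 9.57, 8.93 and 9.87 among Tumor-AM samples, and 0.245, 0.120 and 0.219 in Tumor-macrophage. The Tumor-AM samples agreed closely, with a coefficient of variation of 5.06%, against 54.6% in Ctrl-AM. The Tumor-macrophage values equal 2, 1 and 2 reads, and the lowest Ctrl-AM value equals 12 reads. Means were 2.70 ± 1.48 in Ctrl-AM, 9.46 ± 0.479 in Tumor-AM, which is 3.50 times higher, and 0.195 ± 0.0664 FPKM in Tumor-macrophage (SD, n = 3 each). Smim5 was lower in Tumor-macrophage samples than in Ctrl-AM (difference -1.55 ± 0.25 SE, 95% interval -2.11 to -0.99 on the log2 scale, limma adjusted p = 0.000389).

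Cav1 was the most abundant of the 5. Its FPKM were 28.6, 32.3 and 29.4 in Ctrl-AM, 61.4, 96.1 and 124 among Tumor-AM samples, and 37.2, 35.6 and 39.2 in Tumor-macrophage. The Ctrl-AM and Tumor-macrophage samples were tight and did not overlap, while Tumor-AM spread over 2.02 times from lowest to highest. Means were 30.1 ± 1.92, 93.8 ± 31.4 and 37.3 ± 1.799 FPKM (SD, n = 3 each), so Tumor-AM had 3.12 times the mean of Ctrl-AM and 2.51 times that of Tumor-macrophage. The Tumor-macrophage mean was above the Ctrl-AM mean by 0.30 ± 0.20 (SE) on the log2 scale, which did not pass the test when all groups shared 1 estimate of the spread (95% interval -0.13 to 0.74, limma adjusted p = 0.217). The same difference passed in a fit without the Tumor-AM group (limma adjusted p = 0.0139) and without Tumor-AM replicate 1 (limma adjusted p = 0.0313).

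Ppap2b had FPKM of 5.37, 7.63 and 2.61 in Ctrl-AM, 8.87, 24.9 and 15.6 among Tumor-AM samples, and 6.69, 4.83 and 6.24 in Tumor-macrophage. Ctrl-AM and Tumor-macrophage overlapped, and Tumor-AM replicate 1 was close above both. Means were 5.20 ± 2.52, 16.5 ± 8.07 and 5.92 ± 0.971 FPKM (SD, n = 3 each), so the Tumor-AM mean was 3.16 and 2.78 times the others. The difference between Tumor-macrophage and Ctrl-AM was 0.24 ± 0.36 (SE) on the log2 scale (95% interval -0.56 to 1.04, limma adjusted p = 0.605), and it changed sign to -0.11 without Ctrl-AM replicate 3.

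Nnmt was nearly undetected in control AMs. Its FPKM were 0, 0.478 and 0.191 in Ctrl-AM, which equal 0, 5 and 2 reads, 4.06, 4.49 and 11.8 among Tumor-AM samples, and 2.53, 0.469 and 0.752 in Tumor-macrophage, which equal 21, 4 and 7 reads. Ctrl-AM and Tumor-macrophage overlapped, and 1 TAM sample stood above the other two. Means were 0.223 ± 0.241, 6.79 ± 4.37 and 1.25 ± 1.12 FPKM (SD, n = 3 each). The Tumor-AM mean was 5.44 times that of Tumor-macrophage, and no fold is given against so few reads in Ctrl-AM. Nnmt passed the filter on low values only through its 3 Tumor-AM samples and 1 Tumor-macrophage sample.

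Between Tumor-macrophage and Ctrl-AM, the log2 difference of Nnmt was 0.79 ± 0.39 (SE), with a 95% interval of -0.08 to 1.66 and a limma adjusted p of 0.111. It fell to 0.41 without Tumor-macrophage replicate 1. The test was passed without Tumor-AM replicate 3 (limma adjusted p = 0.0493) and with a pseudocount of 0.1 (difference 2.08, limma adjusted p = 0.0337). With that pseudocount, Ctrl-AM replicate 1, at 0 reads, takes the value log2 of 0.1, so the difference depends on the pseudocount. Nnmt would not have entered the test without its Tumor-AM samples, on which it was chosen. No conclusion is therefore drawn from these p-values.

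Inhba had FPKM of 3.39, 6.53 and 2.00 in Ctrl-AM, 39.5, 24.5 and 32.7 among Tumor-AM samples, and 10.8, 10.9 and 7.52 in Tumor-macrophage. Its 3 groups did not overlap, with TAMs in the middle and control AMs lowest, a different order from Map6 and Smim5. Means were 3.97 ± 2.32, 32.2 ± 7.49 and 9.75 ± 1.93 FPKM (SD, n = 3 each). Inhba was higher in Tumor-macrophage samples than in Ctrl-AM by 1.20 ± 0.30 (SE) on the log2 scale (95% interval 0.54 to 1.86, limma adjusted p = 0.00597).

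Of the 5 genes, 2 (Map6 and Smim5) were lower in Tumor-macrophage samples than in Ctrl-AM, none was higher and 3 were not called, also at an unadjusted p under 0.05. By the same limma test, 5860 of 10686 genes (54.8%) differed between these groups, 2960 (27.7%) higher and 2900 (27.1%) lower, so a call in either direction was common among all genes. After rescaling to TPM the split was 2130 higher and 4409 lower, with the median of all genes moved to -0.22 from -0.01, and the signs of all 5 genes and of Inhba stayed. The Cav1 difference was then 0.07. The plot of the differences between Tumor-macrophage and Ctrl-AM orders the genes by this measure, from Smim5 at -1.55 to Inhba at 1.20.

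**Figure D2:**
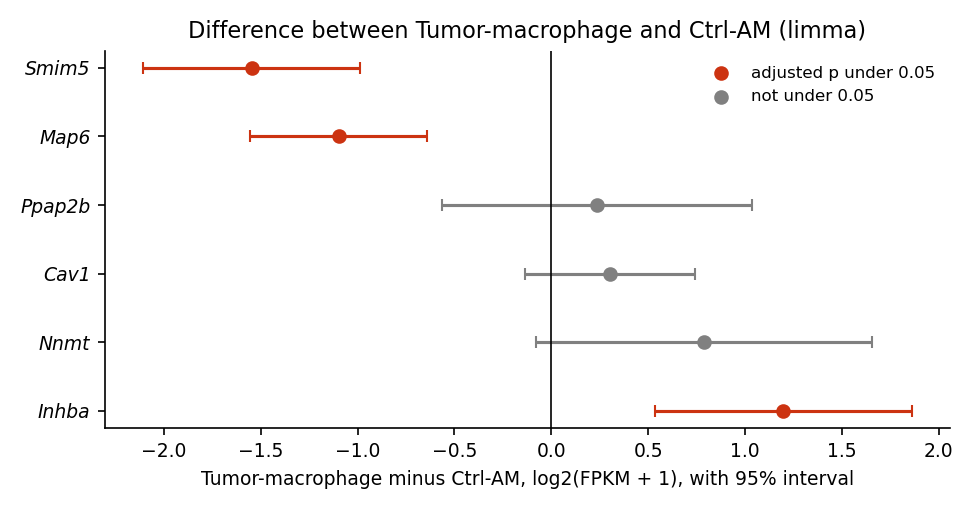
Difference of Tumor-macrophage minus Ctrl-AM in mean log2(FPKM + 1) (x axis) for each gene, with the 95% interval of the limma fit, red where the adjusted p was under 0.05 and grey otherwise. Smim5 and Map6 lie below 0 and Inhba above 0, and the intervals of Ppap2b, Cav1 and Nnmt include 0.

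Relative to the Tumor-AM mean, the genes thus fell into 3 arrangements. For Map6 and Smim5, Ctrl-AM had 19.2% and 28.6% of the Tumor-AM mean, and Tumor-macrophage had 4.16% for Map6 and 1 to 2 reads a sample, too few for a share, for Smim5. For Cav1 and Ppap2b the shares were 32.1% and 31.6% in Ctrl-AM and 39.8% and 35.9% in Tumor-macrophage. Neither difference passed the limma test over all groups, but the samples overlapped for Ppap2b only and not for Cav1. For Inhba, Ctrl-AM had 12.3% and Tumor-macrophage 30.3%. For Nnmt, Tumor-macrophage had 18.4%, and Ctrl-AM had 0 to 5 reads a sample and the lower mean, although these groups overlapped. The bar chart of relative levels shows these arrangements. In bulk samples such as these, fewer cells that express a gene and less RNA per cell cannot be told apart.

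**Figure D3:**
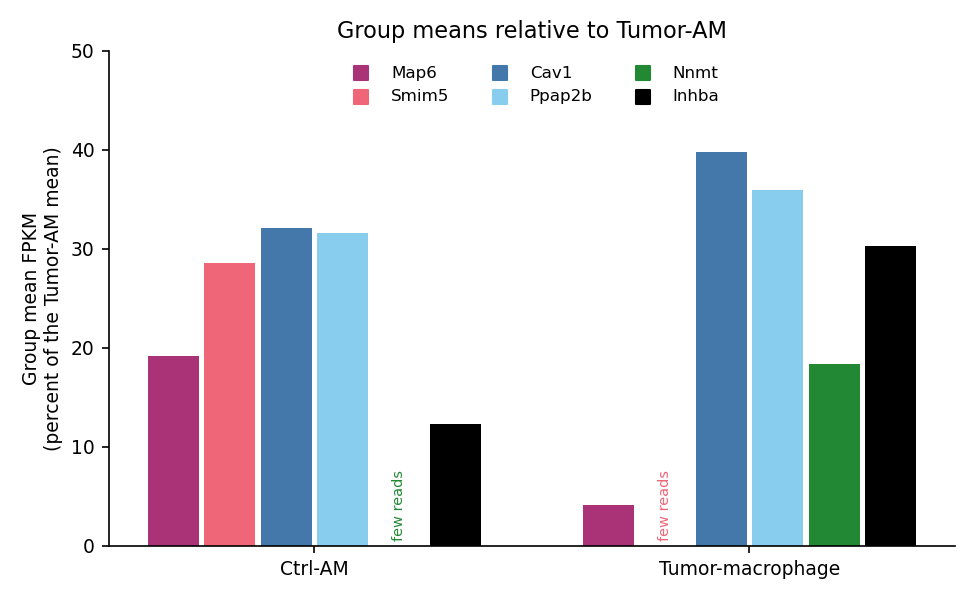
Mean FPKM of each gene in Ctrl-AM (left) and Tumor-macrophage (right) as a percent of its mean in Tumor-AM (y axis, from 0, n = 3 samples per mean, SD not drawn), with no bar where every sample held at most 5 reads (Nnmt in Ctrl-AM, Smim5 in Tumor-macrophage). Map6 drops to 4.16% in Tumor-macrophage, Cav1 and Ppap2b stay between 31.6% and 39.8% in both groups, and Inhba is lower in Ctrl-AM (12.3%) than in Tumor-macrophage (30.3%).

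Within Tumor-AM, the mean FPKM ran in the order Cav1, Ppap2b, Map6, Smim5 and Nnmt. Cav1 stood apart from the others, at the 90.2 percentile of the 10686 genes by mean Tumor-AM level, while the samples of each further neighbouring pair in this order overlapped. Tumor-AM replicate 1 was the lowest of its group for 4 of the 5 genes (Map6, Nnmt, Cav1 and Ppap2b) and the highest for Inhba. Tumor-AM replicate 3 was the highest for 4 of the 5, Ppap2b being the exception with its highest value in replicate 2. The genes therefore differed from Inhba in which sample of the group was highest, with only 3 samples to go by.

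Likeness to each gene was measured as the root mean square difference between log2(FPKM + 1) profiles over the 9 samples, each profile centred on its own mean, so 0 would be an identical profile. Map6 and Smim5 were each other's nearest gene among 10685 (0.36). Thbd, which encodes the anticoagulant receptor thrombomodulin, followed for Map6 (0.40), with means of 18.6 ± 1.35, 38.9 ± 1.81 and 6.34 ± 1.54 FPKM in Ctrl-AM, Tumor-AM and Tumor-macrophage (SD, n = 3 each). The metalloproteinase gene Mmp19 (0.42), Nfe2 (0.43), a transcription factor gene known from the megakaryocyte lineage, and the prostacyclin receptor gene Ptgir (0.46) came next. Nfe2 (0.37), Thbd (0.42), the orphan receptor gene Gprc5c (0.43) and Cd200 (0.51), the ligand of an inhibitory receptor on myeloid cells, were closest to Smim5 after Map6.

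Cav1 was most like Stac2 (0.28), Sqle (0.29), Ptgr1 (0.33), Sc5d (0.35) and Colec12 (0.35). Sqle and Sc5d encode enzymes of cholesterol synthesis, and Sqle had means of 15.0 ± 2.06, 34.3 ± 4.81 and 13.6 ± 1.69 FPKM (SD, n = 3 each, groups in the same order). Colec12 encodes a scavenger receptor, and Ptgr1 a reductase that inactivates prostaglandins and leukotriene B4. Ppap2b was most like Cav1 (0.38), followed by Aqp9 (0.42), Ptgr1 (0.43), Colec12 (0.46) and Akr1b8 (0.46).

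Nnmt was most like Spp1 (0.47), which encodes osteopontin and had means of 753 ± 35.7, 3744 ± 556 and 1459 ± 226 FPKM (SD, n = 3 each). Cav1 (0.56), Inhba (0.57) and the matrix genes Col3a1 (0.58) and Dcn (0.58) followed. Inhba in turn was most like Spp1 (0.48) and Nnmt (0.57), with Zranb3 (0.61), Mfge8 (0.68) and Cav1 (0.71) next. Seen from Inhba, Nnmt took place 2, Cav1 5, Ppap2b 9, Map6 168 and Smim5 2100 among 10685 genes. In the other direction, Inhba took place 3 seen from Nnmt, 880 from Map6, 2190 from Smim5, 2448 from Ppap2b and 3033 from Cav1. A near place from Inhba was thus mutual for Nnmt only. The heat map of centred profiles shows the similar genes, which are a description because they were picked on the same 9 samples. The lists depend on scale, since only 0 to 2 of the 5 genes in each stayed when profiles were divided by their SD.

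**Figure D4:**
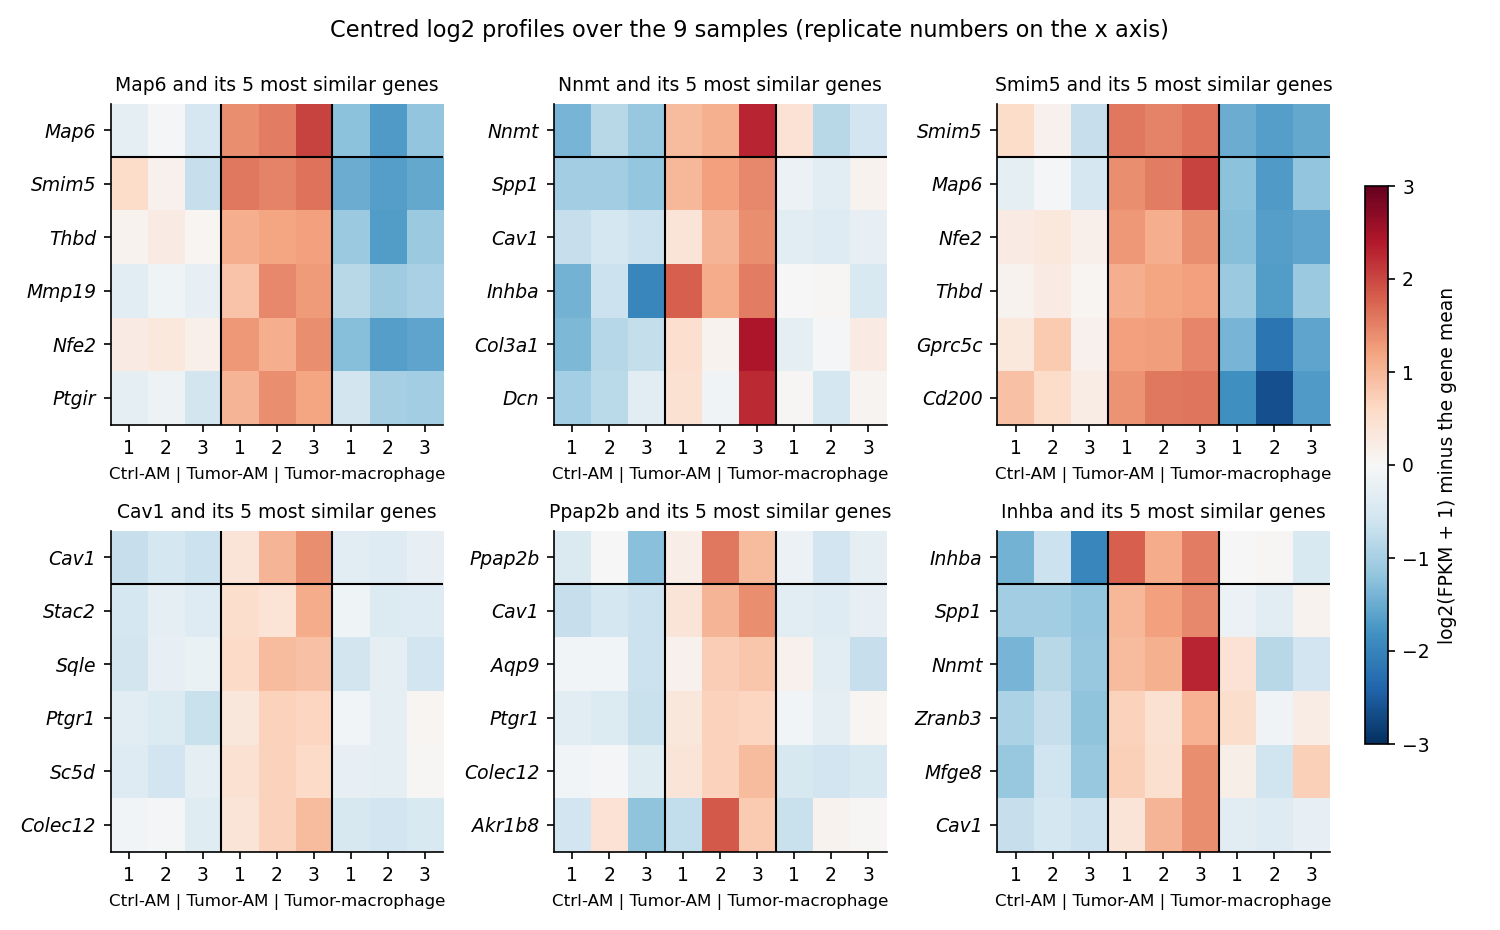
Centred log2(FPKM + 1) in the 9 samples (columns, by group and replicate number) for each gene (top row of a panel) and the 5 genes most like it (rows below), red above and blue below the mean of the gene. All rows peak in Tumor-AM, Tumor-macrophage is lowest in the Map6 and Smim5 panels, and Tumor-AM replicate 3 is the reddest for Nnmt, Col3a1 and Dcn.

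Because Nnmt, Cav1 and Ppap2b are known from structural lung cells, markers of those cells were read beside them. Of 15 fibroblast markers, 8 passed the filter, and their sum over all 15 was 25.1 to 45.0 FPKM in Ctrl-AM, 19.3 to 115 among Tumor-AM samples and 28.1 to 43.2 in Tumor-macrophage. The highest sum, 115, was in Tumor-AM replicate 3, which also had the highest Nnmt, Map6, Smim5 and Cav1. Tumor-AM replicate 2 had the lowest sum of all 9 samples and 4.49 FPKM of Nnmt, and its Col3a1 (3.47) and Lum (4.95) lay above every Ctrl-AM sample. Without replicate 3, the Tumor-AM minus Ctrl-AM difference on the log2 scale was 2.13 for Nnmt (2.55 with it), 1.74 for Map6 (1.93) and 1.33 for Cav1 (1.55).

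The fibroblast markers moved in both directions, and of the 8 tested, 3 were higher and 3 lower in Tumor-AM samples than in Ctrl-AM at an unadjusted p under 0.05. Col3a1, a fibrillar collagen gene, had FPKM of 0.608, 1.28 and 1.51 in Ctrl-AM, 4.84, 3.47 and 21.0 among Tumor-AM samples, and 2.40, 2.96 and 3.87 in Tumor-macrophage. Lum, which encodes the proteoglycan lumican, had 0.480, 0.229 and 0.344 in Ctrl-AM, 6.62, 4.95 and 35.1 among Tumor-AM samples, and 2.36, 4.22 and 7.51 in Tumor-macrophage. For both genes, as for Nnmt, Tumor-AM replicate 3 was the highest library by a wide margin. After adjustment 2 of the 8 were higher and none lower, Col3a1 (log2 difference 1.99, limma adjusted p = 0.0272) and Lum (3.13, limma adjusted p = 0.00736), and both passed without replicate 3 as well, against 7.11% of all genes higher.

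Dcn, the decorin gene, had 1.82 to 3.49 FPKM in Ctrl-AM, 4.28 to 25.7 among Tumor-AM samples and 2.92 to 5.01 in Tumor-macrophage. It too was highest in Tumor-AM replicate 3, but Tumor-AM against Ctrl-AM did not pass (log2 difference 1.58, limma adjusted p = 0.0666).

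The other way went Mgp, the matrix Gla protein gene, with 11.2, 24.5 and 20.1 FPKM in Ctrl-AM, 6.41, 3.47 and 12.9 among Tumor-AM samples, and 8.73, 11.4 and 11.3 in Tumor-macrophage. Its Tumor-AM minus Ctrl-AM difference was -1.28 (limma adjusted p = 0.0550), and it was called lower after rescaling to TPM (limma adjusted p = 0.0354) and without Tumor-AM replicate 3 (difference -1.70, limma adjusted p = 0.0141). The methyltransferase gene Inmt (difference -0.88, limma adjusted p = 0.144) and the collagen gene Col14a1 (-0.53, limma adjusted p = 0.120) did not pass. The median of the 8 was 0.00, against 0.01 for all genes, and -0.22 without Tumor-AM replicate 3. The main collagen genes Col1a1 and Col1a2 stayed at or below 1.37 and 0.809 FPKM in all 9 libraries, and both were at 0 in Tumor-AM replicate 2. The part of fibroblast RNA in the Nnmt values was not tested. The plot of Nnmt beside the 8 tested markers gives their values by sample.

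**Figure D5:**
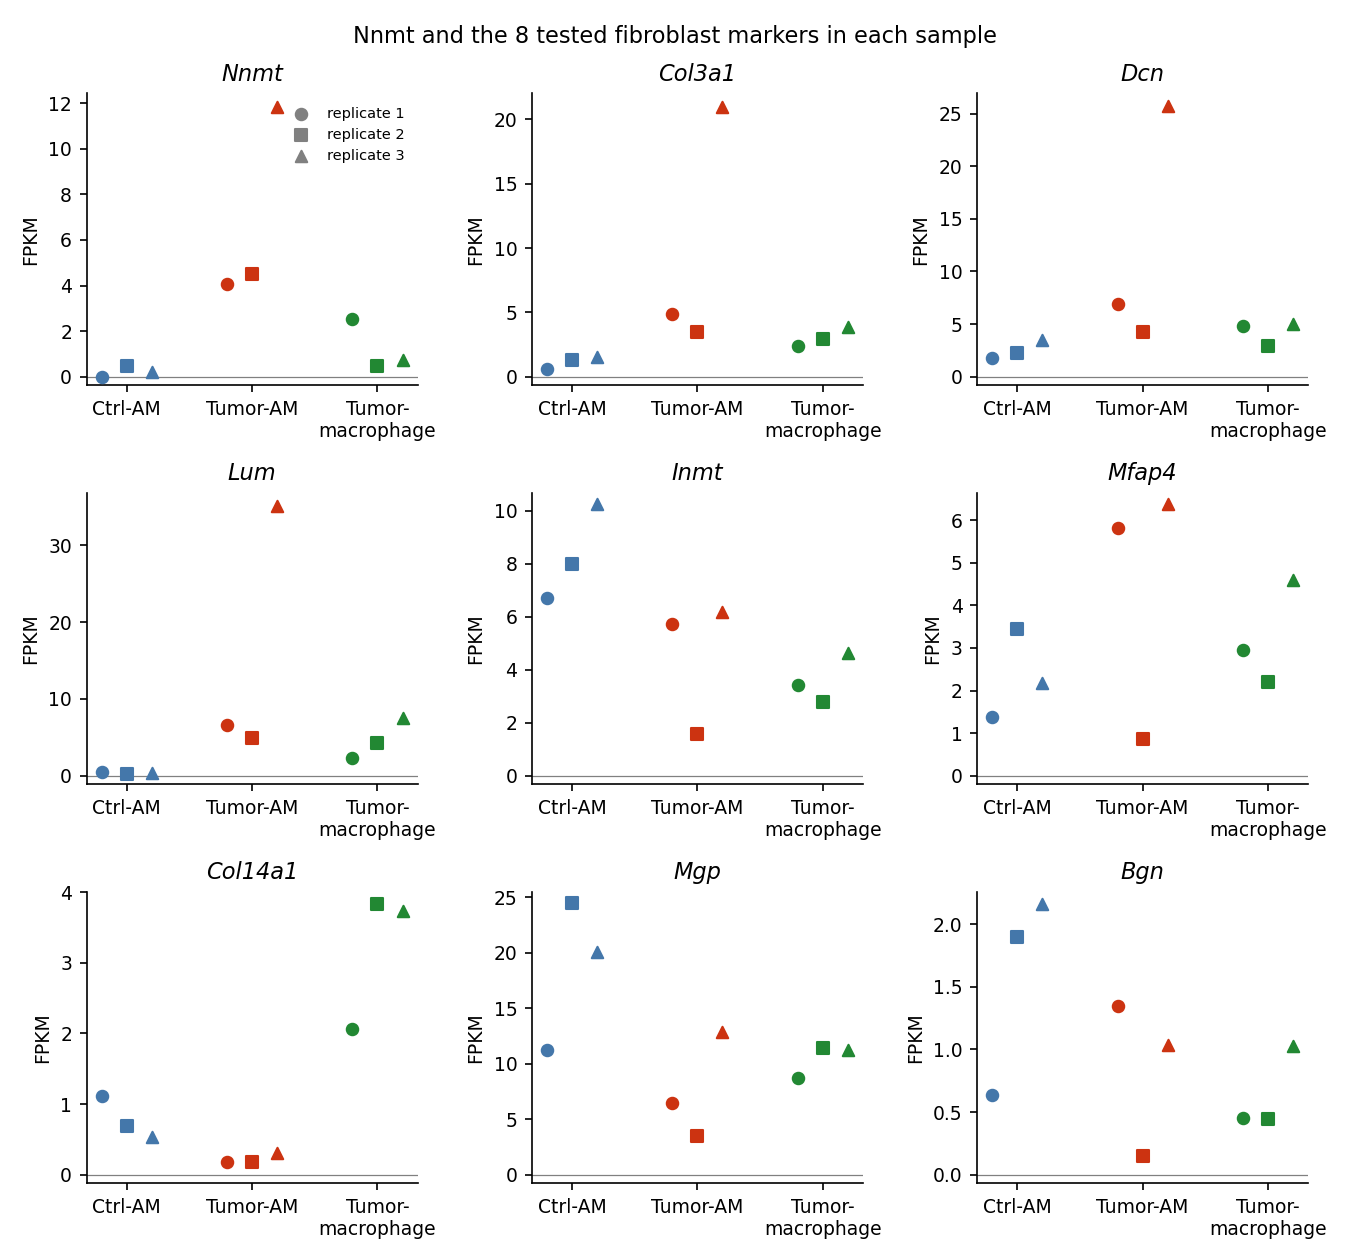
FPKM (y axis, linear, 1 scale per gene) of Nnmt and of the 8 fibroblast markers that passed the filter on low values, in each sample, with colors for groups and marker shapes for replicate numbers. Tumor-AM replicate 3 is the highest sample for Nnmt, Col3a1, Dcn, Lum and Mfap4, whereas the highest sample is from Ctrl-AM for Mgp, Inmt and Bgn and from Tumor-macrophage for Col14a1.

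The 9 markers of smooth muscle and pericytes, other structural cells, were low, but as a sum they were set apart like the 5 genes. Their sum was 3.38 to 3.53 FPKM in Ctrl-AM, 5.11 to 6.80 among Tumor-AM samples and 2.92 to 4.22 in Tumor-macrophage, so that Tumor-AM did not overlap the other groups. Of the 3 tested, Cspg4, a pericyte proteoglycan gene, was higher in Tumor-AM samples than in Ctrl-AM (difference 0.49, limma adjusted p = 0.0498), at 0.685 to 1.05 and 1.49 to 1.796 FPKM, but not under any of the 3 scalings tried or without Tumor-AM replicate 3 (limma adjusted p = 0.0507 to 0.133).

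The smooth muscle actin gene Acta2 ran from 1.42 to 1.55 FPKM in Ctrl-AM, 1.79 to 3.03 among Tumor-AM samples and 0.888 to 1.52 in Tumor-macrophage. It was not called in Tumor-AM against Ctrl-AM (difference 0.42, limma adjusted p = 0.143). Acta2 was lower in Tumor-macrophage samples than in Tumor-AM (difference -0.61, limma adjusted p = 0.0104), as was Cspg4 (-0.40, limma adjusted p = 0.0373), which was not called without Tumor-AM replicate 3 (limma adjusted p = 0.0969). Tagln, also tested, was called neither in Tumor-AM against Ctrl-AM (limma adjusted p = 0.570) nor in Tumor-macrophage against Tumor-AM (limma adjusted p = 0.434). The pericyte marker Rgs5 was at 0 in all 9 libraries, and Myh11 of smooth muscle stayed at or below 0.0571 FPKM. The part of such RNA in the values of the 5 genes was not tested.

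Endothelial and type 1 epithelial markers were read beside Cav1 and Ppap2b in the same way. The sum of 15 endothelial markers was 28.1 to 32.4 FPKM in Ctrl-AM, 19.9 to 33.4 among Tumor-AM samples and 10.7 to 25.8 in Tumor-macrophage. By limma, none of the 7 tested differed between Tumor-AM and Ctrl-AM, against 10.3% of all genes, and none had an unadjusted p under 0.05. In Tumor-macrophage against Tumor-AM, Pecam1 was higher (difference 1.16, limma adjusted p = 0.000152). Calcrl (-1.07, limma adjusted p = 0.000881) and Vwf (-1.32, limma adjusted p = 8.12e-05) were lower there, as were 24.4% of all genes, while 24.2% were higher. Cdh5, which encodes the cadherin of endothelial junctions, stayed at or below 0.431 FPKM in all libraries. The part of endothelial RNA in the Cav1 and Ppap2b values was not tested. The sum of 10 type 1 epithelial markers was 14.9 to 20.4 in Ctrl-AM, 55.8 to 73.2 among Tumor-AM samples and 141 to 190 in Tumor-macrophage. Its higher genes were Hopx, Pdpn and Vegfa, whereas the defining markers Aqp5 and Rtkn2 stayed at or below 0.515 and 0.258 FPKM, and Ager ran from 0.920 to 5.04. This sum was highest in Tumor-macrophage. Of the 5 tested, 2 (Pdpn and Vegfa) were higher in Tumor-macrophage samples than in Tumor-AM. Ager was lower (difference -0.95, limma adjusted p = 0.00878). In Tumor-AM against Ctrl-AM, 3 of the 5 were higher and none lower, against 7.11% of all genes higher. These were Hopx (1.52, limma adjusted p = 0.00131), Pdpn (2.39, limma adjusted p = 4.08e-05) and Vegfa (2.15, limma adjusted p = 0.00333). All 3 were also called under quantile, TPM and median-ratio scaling and without Tumor-AM replicate 3. Ager was not called in Tumor-AM against Ctrl-AM (0.43, limma adjusted p = 0.322). The part of type 1 epithelial RNA in the Cav1 values was not tested.

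Partner genes were then read from lists set up for each of the 5 genes. In Tumor-AM against Ctrl-AM, 1100 of 10686 genes (10.3%) differed by the limma test, 760 higher (7.11%) and 340 lower (3.18%), and in Tumor-macrophage against Tumor-AM 5191 (48.6%) differed, 2588 higher (24.2%) and 2603 lower (24.4%). After rescaling to TPM the first split turned to 475 higher and 824 lower, with the median of all genes moved to -0.11. The 2 comparisons with Ctrl-AM share its samples.

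Of 14 caveola and cavin genes beside Cav1, 10 were tested. Cav2, the caveolin that assembles with caveolin-1 and lies 17.2 kb from Cav1, had 56.5, 45.3 and 52.2 FPKM in Ctrl-AM, 55.7, 91.6 and 65.9 among Tumor-AM samples, and 39.2, 43.3 and 60.3 in Tumor-macrophage. Its groups overlapped, and Tumor-AM minus Ctrl-AM was 0.44 ± 0.19 (SE) on the log2 scale (limma adjusted p = 0.193), although it was lower in Tumor-macrophage samples than in Tumor-AM (difference -0.56, limma adjusted p = 0.0330). Without Tumor-AM replicate 3 that call was lost (limma adjusted p = 0.0548). Ptrf, which encodes cavin-1, the coat protein needed for caveolae, ran from 0.477 to 1.87 FPKM over all samples. Caveolin-3 RNA (Cav3) was listed at 0 in all 9.

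In Tumor-AM against Ctrl-AM, the membrane-bending gene Pacsin2 was the 1 caveola gene called (log2 difference 0.36, limma adjusted p = 0.0492), and it was not called under quantile, TPM or median-ratio scaling. The median of the 10 was 0.08, against 0.01 for all genes. In Tumor-macrophage against Ctrl-AM, 3 were higher and 2 lower, with a median of -0.06 against -0.01 for all genes. Ehd4, an ATPase gene of membrane trafficking, was among the higher (difference 1.25, limma adjusted p = 1.40e-07), at 21.9 to 24.5 FPKM in Ctrl-AM and 54.4 to 58.9 in Tumor-macrophage.

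Of 38 genes of nicotinamide, NAD and methyl group metabolism, 29 were tested beside Nnmt. In Tumor-AM against Ctrl-AM, the median of the 29 was 0.05 against 0.01 for all genes. Nampt, the rate-limiting gene of NAD salvage from nicotinamide (log2 difference 0.31, limma adjusted p = 0.0474), and the NAD hydrolase gene Bst1 (0.35, limma adjusted p = 0.0467) were higher, but neither was called under quantile or TPM scaling.

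In Tumor-macrophage against Ctrl-AM, 9 of the 29 were higher and 10 lower, with a median of -0.17 against -0.01. Cd38, which encodes the main NAD hydrolase of immune cells, was at 0.666 to 1.05 FPKM in Ctrl-AM, 0.801 to 1.20 among Tumor-AM samples and 56.7 to 75.4 in Tumor-macrophage (log2 difference of Tumor-macrophage minus Ctrl-AM 5.21, limma adjusted p = 6.39e-10). Kynu, a gene of the kynurenine route to NAD, was lower in TAMs (-2.15, limma adjusted p = 3.19e-06), and Kmo of the same route was higher (1.50, limma adjusted p = 6.11e-05). Of the methyltransferase relatives of Nnmt, Pnmt was listed at 0 in all 9 samples, and Inmt had 6.69, 7.97 and 10.2 FPKM in Ctrl-AM, 5.73, 1.57 and 6.18 among Tumor-AM samples, and 3.42, 2.79 and 4.62 in Tumor-macrophage. Inmt was thus highest in Ctrl-AM, where Nnmt was lowest.

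Of 13 genes of the lipid phosphate phosphatase family, 6 were tested beside Ppap2b, and none was called by limma in Tumor-AM against Ctrl-AM (1 at an unadjusted p under 0.05, median 0.23 against 0.01 for all genes). Of the near relatives, Ppap2a had 28.0, 28.5 and 27.4 FPKM in Ctrl-AM, 17.2, 24.7 and 26.9 among Tumor-AM samples, and 4.67, 6.42 and 4.45 in Tumor-macrophage. Ppap2c had 8.44, 7.30 and 7.72 in Ctrl-AM, 8.42, 10.7 and 10.3 among Tumor-AM samples, and 17.3, 17.3 and 12.5 in Tumor-macrophage. Against Ctrl-AM, TAMs thus had less Ppap2a (log2 difference -2.24, limma adjusted p = 8.66e-07) and more Ppap2c (0.91, limma adjusted p = 0.000257), while Ppap2b itself was not called. In this comparison 3 of the 6 were higher and 2 lower, with a median of 0.20.

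Of 26 genes that make, break down or sense lysophosphatidic acid and sphingosine 1-phosphate, 17 were tested, and 13 were higher and 3 lower in Tumor-macrophage samples than in Ctrl-AM (median 0.61 against -0.01 for all genes, and 9 higher and 3 lower after rescaling to TPM). Lpar6, a lysophosphatidic acid receptor gene, ran from 1.11 to 1.77 FPKM in Ctrl-AM and from 15.3 to 21.7 in Tumor-macrophage (log2 difference 2.96, limma adjusted p = 2.34e-07). S1pr1, a sphingosine 1-phosphate receptor gene, ran from 2.43 to 2.83 in Ctrl-AM and from 16.7 to 26.6 in Tumor-macrophage (2.53, limma adjusted p = 4.36e-06). Agpat9 and Lpin1, genes of glycerolipid synthesis, were lower (-3.42 and -3.53, limma adjusted p = 4.91e-09 and 1.24e-09). In Tumor-AM against Ctrl-AM 2 were higher and none lower (6 and 1 at an unadjusted p under 0.05), with a median of 0.22. These were the sphingosine phosphate lyase gene Sgpl1 (0.33, limma adjusted p = 0.00954) and the acyltransferase gene Agpat6 (0.34, limma adjusted p = 0.0254). After rescaling to TPM neither was called.

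Of 36 microtubule genes, 35 were in the files and 17 were tested beside Map6. Map6d1, the nearest relative of Map6, did not exceed 0.0846 FPKM in any sample. In Tumor-AM against Ctrl-AM, 2 were higher and none lower (4 and 1 at an unadjusted p under 0.05), with a median of 0.08 against 0.01. The tubulin gene Tubb2a had 8.91, 10.5 and 10.2 FPKM in Ctrl-AM, 16.1, 15.3 and 16.1 among Tumor-AM samples, and 66.0, 71.4 and 65.5 in Tumor-macrophage. Its groups did not overlap, and Tumor-AM was higher than Ctrl-AM by 0.64 ± 0.08 (SE) on the log2 scale (limma adjusted p = 0.00152). The plus-end binding gene Mapre2 was also higher (0.30, limma adjusted p = 0.0472), but not under quantile or TPM scaling. In Tumor-macrophage against Ctrl-AM 6 were higher and 3 lower (median 0.27), and Tppp3, a tubulin polymerization gene, was among the lower (-1.797, limma adjusted p = 5.56e-05), with 242 to 317 FPKM in Ctrl-AM, 280.0 to 513 among Tumor-AM samples and 61.0 to 98.2 in Tumor-macrophage.

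Of 22 further small integral membrane protein genes, 19 were in the files and 14 were tested beside Smim5. Smim3 was the 1 called in Tumor-AM against Ctrl-AM, with 13.9, 14.0 and 16.0 FPKM in Ctrl-AM, 22.3, 19.1 and 25.4 among Tumor-AM samples, and 46.2, 49.9 and 51.2 in Tumor-macrophage (log2 difference of Tumor-AM minus Ctrl-AM 0.57, limma adjusted p = 0.00867). The median of the 14 was -0.12 against 0.01. After rescaling to TPM 1 was higher and 4 were lower. In Tumor-macrophage against Ctrl-AM 4 were higher and 1 lower (median 0.01), and after rescaling to TPM 2 were higher and 6 lower. Smim6, which lies 5.75 kb from Smim5, did not exceed 0.936 FPKM.

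Several partner genes were named above as higher in Tumor-AM samples than in Ctrl-AM. Of these, 6 (Tubb2a, Smim3, Sgpl1, Nampt, Mapre2 and Pacsin2) had still higher means in Tumor-macrophage. For the 5 genes, a lower mean in Tumor-macrophage than in Tumor-AM was fixed by their choice, so the contrast with them is not a result. The share of all genes with the order of the 6 was not counted. Agpat6 was about level, with means of 20.7 ± 0.902 and 19.5 ± 0.959 FPKM in Tumor-AM and Tumor-macrophage (SD, n = 3 each). Bst1 had the order of Map6, with 90.1, 95.8 and 87.3 FPKM in Ctrl-AM, 106, 130 and 116 among Tumor-AM samples, and 40.6, 49.4 and 47.9 in Tumor-macrophage, and no overlap between groups. Beside this, 10 of 12 TAM markers were higher in Tumor-AM samples than in Ctrl-AM, with a median log2 difference of 1.33. The part of TAM RNA in these 6 partner genes was not tested. Without Tumor-AM replicate 3, Tubb2a, Smim3 and Sgpl1 were still called in Tumor-AM against Ctrl-AM. Nampt, Pacsin2, Mapre2, Agpat6 and Bst1 were then not called (limma adjusted p = 0.0631 to 0.105).

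Position was the last property that the choice of the genes had not used. Within 100 kb of the 5 genes and Inhba lay 18 genes of the files, of which 9 were tested. In Tumor-AM against Ctrl-AM, 1 was higher and none lower by limma (2 and 0 at an unadjusted p under 0.05). This was Dgat2, which encodes an enzyme of triglyceride synthesis and lies 84.7 kb from Map6. It had 66.7, 68.2 and 86.0 FPKM in Ctrl-AM, 122, 115 and 135 among Tumor-AM samples, and 8.75, 6.81 and 5.88 in Tumor-macrophage. Its groups were ordered as those of Map6, with a log2 difference of 0.75 for Tumor-AM minus Ctrl-AM (limma adjusted p = 0.00782) and -3.20 for Tumor-macrophage minus Ctrl-AM (limma adjusted p = 1.60e-08). Among the 9, 1 was higher and 4 were lower in Tumor-macrophage samples than in Ctrl-AM, and the same numbers held against Tumor-AM. Of all genes, 54.8% and 48.6% were called in these 2 comparisons and 10.3% in Tumor-AM against Ctrl-AM, so such calls were common at any position.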

How the data were processed

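RNA of 9 sorted macrophage samples, 3 per group, had been made into SMART-Seq HT and Nextera libraries and read as single 75-base reads on a HiSeq instrument. According to their methods and the labels, the authors mapped reads to mm10 with TopHat2 2.1.1 and Bowtie2 and deposited FPKM per gene symbol from Cufflinks or Cuffdiff 2.2.1. The annotation, the use of strand and the handling of reads with several matches were not given in the sources used here. In FPKM, RNAs that dominate 1 population lower the values of its other genes.

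FPKM were analysed as log2(FPKM + 1). The 10686 genes that reached an FPKM of 1 in 3 or more of 9 samples entered a fit by limma 3.58.1 (R 4.3.3) over 3 group means with an intensity trend, and two-sided p-values were adjusted over all of them by the Benjamini-Hochberg method at a threshold of 0.05. On simulated data for Tumor-macrophage against Ctrl-AM with 10686 genes, 96% of 200 changed genes were recovered and 7.69% of calls were false. The changes were of fixed size and placed only in genes with higher mean levels than Map6, Smim5 and Nnmt, so these rates do not cover those 3. In the data, 54.8% of genes differed, far more than the 200 simulated. The labels do not tie samples to mice, so p-values measure the spread between these samples. The 5 genes were compared by test only in Tumor-macrophage against Ctrl-AM, and Nnmt would not have entered it without its Tumor-AM samples. The 5 genes, the gene lists and the tests were chosen with earlier results of these data known. Genes named are the 5, Inhba, genes of the lists, the 5 nearest profiles of each and neighbours within 100 kb, and 1 gene of the lists is not reported here.

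Depth was estimated from low values, whose ratios between samples fell on whole reads (within 0.5%) in 94.8% to 98.9% of cases. Such ratios give relative depth only, and the estimated reads per sample rest on Ctrl-AM replicate 1 and an assumed fragment length of 200 bases. Reads behind low values of Nnmt and Smim5 were whole within 1% and cover counting error only. GENCODE vM21 (GRCm38) gave positions for 98.4% of symbols, and RefSeq promoters were held for 2 of the 5 genes. Alternatives covered the pseudocount, filter, scaling, prior variance, samples fitted, replicate block and leaving out each sample. List counts under other scalings and without Tumor-AM replicate 3 were added after seeing the data. Python 3.11.15 with numpy 2.4.6, pandas 2.3.3 and matplotlib 3.10.9 did the rest.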

Additional observations from a re-analysis of the deposited data

How the results depend on the processing

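Of 341 values recomputed under an alternative, 314 stayed within the limit set for their kind. The kinds were counts of called genes, differences of single genes and lists of similar genes. Among them were the Tumor-AM differences of the 5 genes. The choice of the genes had used their direction, so the share of 314 is not a measure of stability. The lower levels of Map6 and Smim5 and the higher level of Inhba in Tumor-macrophage than in Ctrl-AM passed the limma test under every alternative run, with log2 differences of -2.12 to -0.93, -3.11 to -1.27 and 0.89 to 1.55. For Nnmt, which entered the test through its Tumor-AM samples, the difference was 2.08 with a pseudocount of 0.1 (limma adjusted p = 0.0337). It was 0.41 to 1.04 when 1 sample was left out. For Cav1 it was 0.30 and passed when only the 2 compared groups were fitted, and was 0.27 to 0.35 when 1 sample was left out. For Ppap2b it was -0.11 to 0.52 when 1 sample was left out, and -0.11, the reversed sign, without Ctrl-AM replicate 3. Leaving out a Tumor-AM sample acts on this comparison only through the shared estimate of the spread. Nnmt gave no value under the filter of 5 FPKM in 3 samples, which it did not pass.

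The Tumor-AM minus Ctrl-AM differences with a pseudocount of 0.1 were 2.32 for Map6 (1.93 with 1) and 4.57 for Nnmt (2.55), and those of Tumor-AM minus Tumor-macrophage were 4.45 for Map6 (3.03), 2.49 for Nnmt (1.76) and 5.05 for Smim5 (3.13). Rescaled to TPM, Tumor-AM minus Tumor-macrophage was 3.36 for Map6 and 3.50 for Smim5. The number of genes that differed between Tumor-AM and Ctrl-AM, 1100, ran from 538 to 1254 when 1 sample was left out, with 538, 690 and 549 without Ctrl-AM replicates 1, 2 and 3 and 733 and 674 without Tumor-AM replicates 1 and 3. Of the 5 genes most like each, a pseudocount of 0.1 kept 2 for Map6, 3 for Nnmt, 3 for Smim5 and 2 for Inhba, and dividing profiles by their SD kept 1 for Map6, 0 for Nnmt, 0 for Smim5, 2 for Cav1, 1 for Ppap2b and 1 for Inhba. The cause was not tested.

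Samples with the same number were not shown to be paired, since their deviations from the group means correlated at -0.06 to 0.16. With the replicate number as a block, 5772 genes differed between Tumor-macrophage and Ctrl-AM (5860 without), 938 between Tumor-AM and Ctrl-AM (1100) and 5069 between Tumor-macrophage and Tumor-AM (5191), and no call of the 5 genes or Inhba changed. Depth limits Nnmt in Ctrl-AM and Smim5 in Tumor-macrophage, where a sample holds 0 to 5 and 1 to 2 reads.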
